A study of Homo sapiens with 8 samples.

Results

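The genes examined were 8 transcription regulators of the embryonic kidney, WT1, PAX2, PAX8, SIX2, EYA1, SALL1, OSR1 and LHX1. They were chosen by name, for their known role in the nephron lineage, out of the 69215 genes listed in each count file. Earlier results of these data were known when the genes were chosen. The question was which of them a kidney rhabdoid tumor line keeps. All 8 were found in the files. RNA was sequenced from G401 cells, an established cell line of kidney rhabdoid tumor origin without SMARCB1, a core subunit of the SWI/SNF chromatin remodelling complexes (mSWI/SNF). A derivative carrying a doxycycline-inducible (Tet-On) SMARCB1 transgene and a control derivative carrying inducible GFP each received 0.1 µg/ml doxycycline (Dox), or dimethylsulfoxide (DMSO) as the solvent control, for 12 h. This gave 4 groups of 2 libraries, SMARCB1 DMSO, SMARCB1 Dox, GFP DMSO and GFP Dox, all from the same parental tumor line. Each construct was represented by 1 derivative, so a difference between the lines cannot be told apart from a difference between the cell populations that were engineered. Plates of a condition were harvested and combined, and nothing in the labels says that replicates came from separate cultures, so the p-values measure only the spread between these samples.

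In the embryo, nephrons form from the metanephric mesenchyme, in which OSR1, WT1, EYA1, SIX2, SALL1 and PAX2 act together. SIX2 holds the nephron progenitors in a self-renewing state, and EYA1 is a protein phosphatase and coactivator that works with SIX2 and its relatives. As progenitors turn into epithelium, SIX2 is switched off and PAX8 and LHX1 come on, whereas WT1 persists in podocytes, the filtering cells of the glomerulus. PAX2 is made both in the progenitors and in the ureteric bud, the epithelial outgrowth that becomes the collecting ducts.

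Total gene counts ranged from 29632090 to 37597477 per library, and mitochondrially encoded genes took 18.9% to 27.9% of them, SMARCB1 DMSO replicate 1 having the most and GFP Dox replicate 1 the least. SMARCB1 itself had 30474 and 29383 counts in SMARCB1 Dox, 10 and 21 in SMARCB1 DMSO and 0 in all 4 GFP libraries, so the induced gene matched the labels. The rhabdoid markers VIM, KRT8, KRT18 and MUC1 were all detected, with mean levels over the 8 libraries of 193, 64.9, 106 and 2.25 RPKM (counts per kilobase of exon, scaled to library size). Levels of different genes are compared in RPKM only, and a gene's level between libraries in CPM (counts scaled to a common library size by the trimmed mean of M-values).

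Of the 8 kidney progenitor genes, 1 was expressed at a level that could be tested, and that was PAX2. The other 7 stayed at 9 counts or fewer in every library. WT1 and SIX2 had 0 counts in all 8 libraries, SALL1 had 1 count in 1 library, and EYA1, OSR1, LHX1 and PAX8 had 5, 6, 15 and 17 counts over the 8 libraries together. For comparison, 36.2% of 20015 protein-coding genes had at most 9 counts in every library, 18.7% had none at all, and 62% passed the filter on low counts. In a bulk sample, fewer expressing cells and less RNA per cell cannot be told apart.

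**Figure D1:**
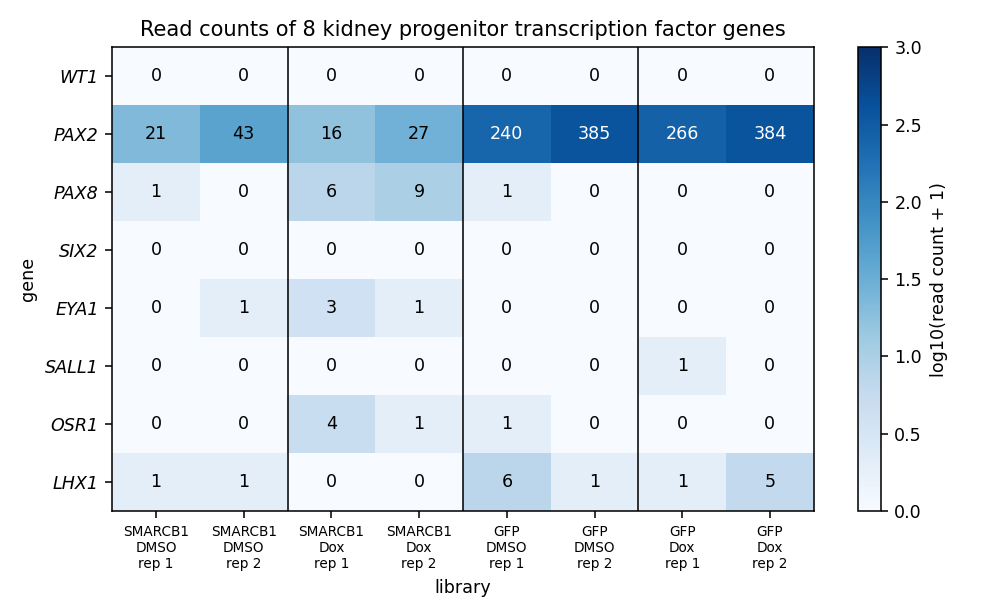
Read counts of the 8 genes (rows) in each of the 8 libraries (columns, grouped by line and treatment), with colour showing log10 of the count plus 1. PAX2 is the gene with counts above 9, from 16 to 43 in the SMARCB1 libraries and from 240 to 385 in the GFP libraries.

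The heat map of counts shows each value. Pooled over the 8 libraries and divided by exon length, the genes ordered as PAX2 (0.771 RPKM), LHX1 (0.0112), PAX8 (0.00847), OSR1 (0.00418), EYA1 (0.00197) and SALL1 (0.000583). WT1 and SIX2 had no read, and the limit that 3 counts over all libraries would set is 0.00136 RPKM for WT1 and 0.005 RPKM for SIX2, covering counting error only. The neighbours LHX1 and PAX8 rest on 15 and 17 counts, and OSR1 and EYA1 on 6 and 5, so their order within each pair was not resolved at this depth.

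PAX2 encodes a paired-box factor that is needed for both the ureteric bud and the induced mesenchyme. The gene (ENSG00000075891.23) spans chr10:100735396-100829944 on the plus strand of GRCh38 and is protein-coding, with 6582 bases of annotated exon. RefSeq promoter windows on GRCh38.p14, 300 bases around a start, were held for PAX2, PAX8, SIX2 and WT1, that is for 4 of the 8 genes. The windows of both PAX2 starts are printed because PAX2 is the gene that the measurements turn on, and that of SIX2 because this gene had no read. Capitals mark CG dinucleotides, the letters C and G in a row, which read the same on either strand.
PAX2, upstream start, chr10:100735146-100735445, plus strand: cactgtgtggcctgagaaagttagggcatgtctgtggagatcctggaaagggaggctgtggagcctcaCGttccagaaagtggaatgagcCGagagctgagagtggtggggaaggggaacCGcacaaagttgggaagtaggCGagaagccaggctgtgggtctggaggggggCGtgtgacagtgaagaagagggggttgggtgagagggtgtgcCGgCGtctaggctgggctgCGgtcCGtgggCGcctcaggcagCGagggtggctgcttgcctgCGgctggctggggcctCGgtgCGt
PAX2, downstream start, chr10:100745332-100745631, plus strand: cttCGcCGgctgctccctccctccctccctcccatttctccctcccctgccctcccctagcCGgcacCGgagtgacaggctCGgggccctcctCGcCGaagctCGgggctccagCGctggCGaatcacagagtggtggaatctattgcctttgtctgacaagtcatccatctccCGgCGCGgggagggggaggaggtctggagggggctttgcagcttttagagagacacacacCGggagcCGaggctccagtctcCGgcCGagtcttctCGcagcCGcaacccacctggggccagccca
SIX2, chr2:45009403-45009702, minus strand: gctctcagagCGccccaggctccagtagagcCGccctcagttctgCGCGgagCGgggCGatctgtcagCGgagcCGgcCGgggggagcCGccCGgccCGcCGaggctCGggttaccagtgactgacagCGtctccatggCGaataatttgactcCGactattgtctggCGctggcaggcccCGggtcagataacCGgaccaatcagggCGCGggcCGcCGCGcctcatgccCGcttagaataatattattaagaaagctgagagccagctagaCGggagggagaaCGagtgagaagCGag
The PAX2 windows held 14 and 19 CG, and 50.3% and 42.9% of 35116 promoter windows of the same length held at least as many. The SIX2 window held 29 CG, a number reached by 24.2% of the windows. The PAX8 window held 13 CG and the 4 WT1 windows 4 to 21. The median window held 14. The sequences describe the genes only, since RNA counts do not show from which start PAX2 was read.

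PAX2 was low in the SMARCB1 line and higher in the GFP line, with or without Dox. It had 21 and 43 counts without Dox and 16 and 27 counts with Dox in the SMARCB1 line, and 240 and 385 without and 266 and 384 with Dox in the GFP line. Every GFP library lay above every SMARCB1 library, and in each group replicate 2 had more counts than replicate 1. On the CPM scale the SMARCB1 line had 1.01 ± 0.413 without Dox and 0.611 ± 0.228 with it, and the GFP line 8.57 ± 2.07 and 9.57 ± 1.31 (SD, n = 2). Among protein-coding genes ranked by RPKM, PAX2 stood at percentile 43.8 in SMARCB1 DMSO and 40.9 in SMARCB1 Dox, against 55 in GFP DMSO and 56.1 in GFP Dox.

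**Figure D2:**
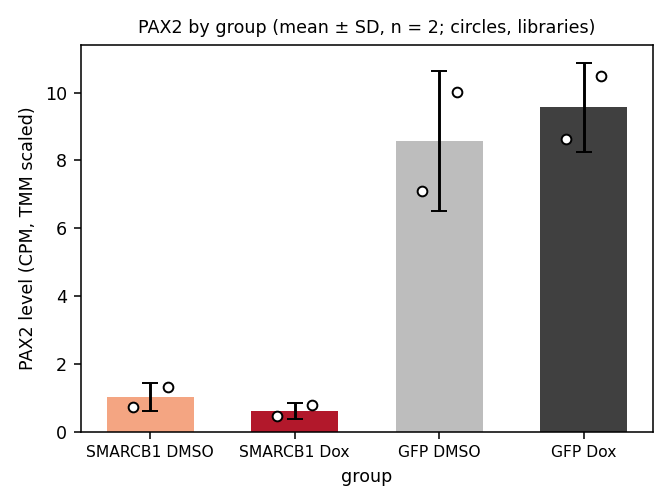
PAX2 level in CPM (y axis) in the 4 groups, with bars for the mean, error bars for the SD of 2 libraries and circles for the libraries. The GFP bars stand at 8.57 and 9.57 CPM and the SMARCB1 bars at 1.01 and 0.611 CPM.

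Before induction, PAX2 was 8.35-fold lower in the SMARCB1 line than in the GFP line (log2 fold change -3.06, SE 0.256, adjusted p = 2.77e-09, edgeR quasi-likelihood test, Benjamini-Hochberg). This was 1 called gene among the 8, of which 7 had too few counts to test, in a comparison that called 32% of all 15931 genes tested. It was called in all 18 alternatives, the fit without mitochondrial genes included, with log2 fold changes between -3.57 and -2.72. The bars of PAX2 by group show a gap in the same direction between the Dox groups.

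Dox did not give a called change of PAX2 in either line. In the SMARCB1 line the log2 fold change was -0.75 (SE 0.366, approximate 95% interval -1.46 to -0.03, edgeR Benjamini-Hochberg adjusted p = 0.202), and the 2 Dox values overlapped the DMSO values on the CPM scale. In the GFP line it was 0.16 (SE 0.194, interval -0.22 to 0.54, adjusted p = 1), and here too the groups overlapped. The difference between these Dox effects was -0.90 (SE 0.414, edgeR adjusted p = 0.276). For Dox in the SMARCB1 line the unadjusted edgeR p of PAX2 was 0.0538. The approximate intervals rest on the normal distribution and are narrower than the edgeR test implies. Dox in the SMARCB1 line called 14% of all genes tested and the difference test 4.71% (3.07% higher, 1.64% lower), and 0 of the 8 genes were called in either. In the GFP line edgeR called 0% of all genes, with 266 genes (1.67%) at an unadjusted p under 0.05, and DESeq2 called 0.

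The early mesenchyme factors were at the floor of detection. SIX2, which maintains nephron progenitors (ENSG00000170577.8, chr2:45005182-45009452, minus strand, 2206 bases of exon), had 0 counts in each library. WT1, a zinc finger factor of progenitors and podocytes and a tumor suppressor gene of Wilms tumor (ENSG00000184937.16, chr11:32387775-32435564, minus strand, 8133 bases of exon), also had 0 in each. SALL1, a zinc finger factor of the progenitors (ENSG00000103449.13, chr16:51135982-51152334, minus strand, 6303 bases of exon), had 1 count in GFP Dox replicate 1 and 0 elsewhere. No comparison between groups can be made for these genes at this depth.

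EYA1 and OSR1 had a few reads, most of them in the SMARCB1 Dox libraries. EYA1 (ENSG00000104313.20, chr8:71197433-71592025, minus strand, 9322 bases of exon) had 0 and 1 counts without Dox and 3 and 1 counts with Dox in the SMARCB1 line, and none in the 4 GFP libraries. OSR1, a zinc finger factor of the intermediate mesoderm from which the kidney arises (ENSG00000143867.7, chr2:19351485-19358623, minus strand, 5279 bases of exon), had 4 and 1 counts after SMARCB1 induction, 1 count in GFP DMSO replicate 1 and 0 in the other 5. Ratios were formed only for genes with more than 3 counts in SMARCB1 Dox and any in SMARCB1 DMSO, so a fall could hardly appear among them. Scaled to library size, EYA1 gave a Dox to DMSO ratio of 3.52, and the exact 95% interval from counting, 0.349 to 173, includes no difference.

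PAX8 and LHX1, the genes of the forming epithelium, differed in where their few reads lay. PAX8, a paired-box factor related to PAX2 (ENSG00000125618.18, chr2:113215997-113278921, minus strand, 7371 bases of exon), had 1 and 0 counts without Dox and 6 and 9 counts with Dox in the SMARCB1 line, 1 count in GFP DMSO replicate 1 and 0 in the other 3 GFP libraries. Both SMARCB1 Dox libraries lay above the other 6. Scaled to library size, the ratio of SMARCB1 Dox to SMARCB1 DMSO was 13.2, with a 95% exact counting interval of 2.03 to 556. It rests on 15 against 1 count and does not include the spread between replicates. PAX8 got a ratio only because its SMARCB1 Dox counts exceeded 3, so this interval is no test of a change. In an edgeR fit without the filter on low counts, the log2 fold change of PAX8 was 3.45 with a Benjamini-Hochberg adjusted p of 0.316, so the difference was not called.

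LHX1, a LIM homeodomain factor (ENSG00000273706.5, chr17:36936785-36944612, plus strand, 4913 bases of exon), had 1 and 1 counts without Dox and 0 and 0 counts with Dox in the SMARCB1 line, and 6 and 1 without and 1 and 5 with Dox in the GFP line. Its groups overlapped, apart from SMARCB1 Dox at 0, and without the filter its log2 fold change between the DMSO groups was -1.54 (edgeR Benjamini-Hochberg adjusted p = 0.754). Summed over the 7 genes below the filter, the counts were 2 and 2 without Dox and 13 and 11 with Dox in the SMARCB1 line, against 8 and 1 without and 2 and 5 with Dox in the GFP line. The SMARCB1 Dox libraries held 24 of these 44 counts, of which PAX8 gave 15. These libraries also had reads on the most genes, 22180 and 21919, against 20839 to 21713 in the other libraries. Whether the summed counts reflect more than this was not tested.

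Annotated genes that overlap the 8 genes or start within 5 kb of their starts numbered 16, and these too were at or near 0, with 5 counts in all for PAX8-AS1, 2 for LHX1-DT, 1 for WT1-AS and none for the other 13. The nearest protein-coding genes whose mean reached 1 CPM, a level by which they were chosen after the values were seen, lay at 4.31 to 1417 kb from the 7 genes, and less expressed genes in between were passed over. EIF3M, a translation initiation factor subunit gene 148 kb from WT1, had 4829 to 6220 counts, and RCN1, 282 kb away on the other side, had 1634 to 2825. SRBD1, 379 kb from SIX2, had 768 to 1412 counts, and TERF1, a telomere protein gene 1417 kb from EYA1, had 2375 to 3091. CYLD, a deubiquitinase gene 334 kb from SALL1, had 327 to 672, and AATF, 4.31 kb from LHX1, had 669 to 1249. Most of the remaining flanking genes were lower. CAMKMT by SIX2 had 201 to 366 counts, HNRNPA1L3 by SALL1 236 to 367, XKR9 by EYA1 31 to 62 and MRM1 by LHX1 32 to 64. By OSR1, RDH14 had 230 to 311 and TTC32 32 to 67, and by PAX8, ZNG1B had 108 to 138 and CKAP2L 1183 to 1797.

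Related genes of the same families were expressed where the kidney factor was not. SIX4 had 28300 counts over the 8 libraries against 0 for SIX2, which per exon length is at least 3073-fold higher, against a floor of 3 counts over all libraries. EYA3 had 18287 counts against 5 for EYA1, a ratio of 5307 per exon length (95% exact counting interval 2274 to 16347). SALL4, a zinc finger factor of embryonic stem cells and germ cells, had 33514 counts against 1 for SALL1, a ratio of 36591 with an interval of 6567 to 1.4453e+06.

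OSR2 had 2853 counts against 6 for OSR1, a ratio of 857 per exon length (95% exact counting interval 393 to 2336). LHX2, a LIM homeodomain factor of forebrain and limb, had 8404 counts against 15 for LHX1, a ratio of 1102 (668 to 1970). EGR1, an immediate early zinc finger factor whose DNA recognition resembles that of WT1, had 2791 counts against 0 and was at least 2412-fold higher than WT1 per exon length. Within the listed genes, PAX2 exceeded PAX8 by a ratio of 91 (56.7 to 157). These pairs were chosen after the values were seen, and the intervals cover counting error only.

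**Figure D3:**
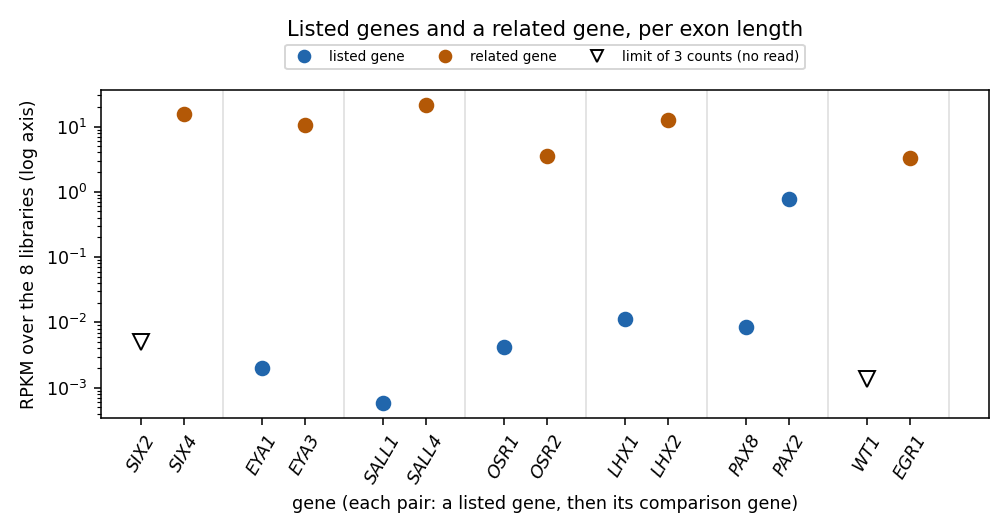
RPKM pooled over the 8 libraries (log y axis) for each listed gene and a related gene beside it. Filled points are measured levels, and open triangles mark the limit of 3 counts for SIX2 (0.005) and WT1 (0.00136), which had no read. Each related gene outside the list lies at above 1 RPKM, and the listed genes other than PAX2 lie below 0.1.

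The paired plot of levels per exon length shows this gap, but not every relative was expressed. Of 30 further members of the families of these genes, with the EGR genes counted as relatives of WT1, 16 had at most 9 counts in every library, 8 of these had none, and 13 could be tested. EYA2 had 0 counts and EYA4 had 2 counts in 1 library, so EYA3 was the EYA gene that could be tested. PAX1, PAX3 and PAX4 were at 0, and PAX6, a paired-box factor of eye and brain, had 16 and 25 counts without and 49 and 81 counts with Dox in the SMARCB1 line and 3 to 6 in the GFP libraries. SALL4 was the family member of highest mean level, at 21.2 RPKM.

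Among these 13 relatives, 4 rose and 1 fell with Dox in the SMARCB1 line, where 8.33% of all genes rose and 5.69% fell. The median log2 fold change of the 13 was 0.08, against -0.0038 over all genes tested. OSR2, a zinc finger factor close to OSR1, had 327 and 377 counts without Dox and 727 and 665 counts with Dox in the SMARCB1 line, and 204 and 196 without and 183 and 174 with Dox in the GFP line. The SMARCB1 Dox libraries lay above all others. OSR2 rose 1.74-fold (log2 fold change 0.80, SE 0.133, edgeR Benjamini-Hochberg adjusted p = 0.000226).

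PAX6 rose by a log2 fold change of 1.49 (SE 0.406, adjusted p = 0.0162), EGR1 by 0.77 (SE 0.178, adjusted p = 0.00509) and SALL2 by 0.48 (SE 0.116, adjusted p = 0.00721), all with edgeR. LHX3, a LIM homeodomain factor of the pituitary and motor neurons, fell by 0.82 (SE 0.241, edgeR adjusted p = 0.025). Without SMARCB1 DMSO replicate 1 or SMARCB1 Dox replicate 2 the calls of PAX6 (edgeR adjusted p = 0.12 and 0.232) and SALL2 (0.119 and 0.138) ended, and without SMARCB1 DMSO replicate 2 those of EGR1 (0.103) and LHX3 (0.142). LHX3 was not called either without SMARCB1 Dox replicate 1 (0.107) or replicate 2 (0.086), or with DESeq2 (0.0528, Benjamini-Hochberg adjusted). In the GFP line 0 of the 13 were called. The difference of the Dox effects was called for OSR2 alone among the 13 (0.86, SE 0.202, edgeR adjusted p = 0.0138), where 4.71% of all genes were called. That call ended without SMARCB1 Dox replicate 1, GFP DMSO replicate 1 or GFP Dox replicate 2 (adjusted p = 0.0545, 0.091 and 0.103, edgeR), while the rise of OSR2 in the SMARCB1 line was called in all 18 alternatives. PAX6 lies across from ELP4 on the opposite strand, which had 6981 counts against its 190, and the strand option of the counting was not given in the sources used here, so its values are uncertain.

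Between the DMSO groups, 5 of the 13 relatives were higher in the SMARCB1 line and 3 lower, where 16.3% of all genes were higher and 15.7% lower. Among the higher ones were PAX6 (2.08), OSR2 (1.03), LHX2 (0.96) and SIX4 (0.53) on the log2 scale, and LHX6 (-1.54), SALL2 (-0.68) and SALL4 (-0.24) were lower. The call of SALL4 had an edgeR adjusted p of 0.0377, and over its alternatives the adjusted p ranged from 0.000623 to 0.301, the highest without SMARCB1 DMSO replicate 1, and that of PAX6 was lost without SMARCB1 DMSO replicate 2 (edgeR adjusted p = 0.0514).

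Of 15 genes known as partners or markers of the nephron progenitor, 10 had at most 9 counts in every library, 3 of them none, and 5 could be tested. ITGA8, the integrin of the cap mesenchyme, had 0 to 4 counts a library, and GDNF, the ligand that draws the ureteric bud into the mesenchyme, had 0 or 1. HOXA11, a patterning gene of the metanephric mesenchyme, was present at 198 to 399 counts, while HOXD11, which acts with it, had 3 counts in 1 library and 0 in the others. HOXA11 was lower in SMARCB1 DMSO than in GFP DMSO (log2 fold change -0.63, edgeR adjusted p = 0.00164). An antisense gene, HOXA11-AS, had 403 counts against 2437 for HOXA11, and without strand their reads cannot be told apart.

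MEOX1, a homeobox gene of the somites that is also active in nephron progenitors, was the member of this list with the highest mean level, and it fell with SMARCB1. It had 1417 and 1702 counts without Dox and 881 and 1134 counts with Dox in the SMARCB1 line, and 2317 and 2934 without and 2212 and 2701 with Dox in the GFP line. The SMARCB1 Dox values were the lowest of all libraries. The log2 fold change was -0.81 with Dox in the SMARCB1 line (SE 0.105, edgeR adjusted p = 1.34e-05), and the difference from the GFP line was -0.82 (SE 0.145, adjusted p = 0.00147). It was the 1 partner of 5 tested that was called for Dox, where 14% of all genes were called. Between the DMSO groups 2 of the 5 were higher and 2 lower, against 16.3% and 15.7% of all genes.

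**Figure D4:**
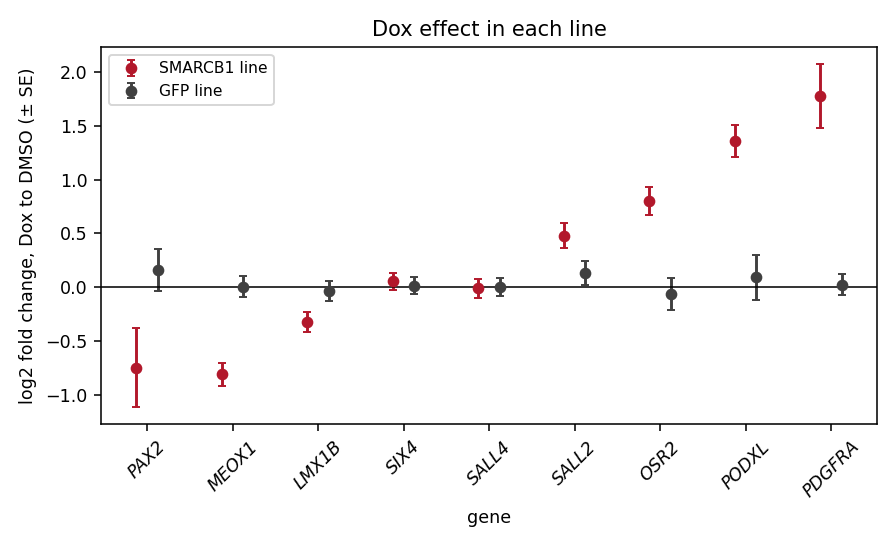
Log2 fold change of Dox against DMSO (y axis, with bars for the SE) in the SMARCB1 line (red) and the GFP line (grey), for PAX2 and 8 genes of the related lists. PAX2 and MEOX1 sit at -0.75 and -0.81 in the SMARCB1 line, but PAX2 has an SE of 0.366 and MEOX1 of 0.105.

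The plot of Dox effects sets PAX2 beside MEOX1. Their estimated changes were of similar size, and MEOX1, with at least 881 counts in each library, was called while PAX2, with 16 to 43 counts in the SMARCB1 line, was not. The parts of low counts and of the spread between replicates in this were not tested. Genes downstream of the progenitors were mixed. Of 13 early nephron genes, 5 had at most 9 counts in every library and 7 could be tested. Of these 7, 0 were called for Dox in the SMARCB1 line, where 14% of all genes were called. WNT4, the signal that turns progenitors into epithelium, had 13 to 28 counts in the SMARCB1 libraries and 50 to 76 in the GFP libraries (log2 fold change of SMARCB1 DMSO against GFP DMSO -1.53, edgeR adjusted p = 0.00337, and 0.0703 without SMARCB1 DMSO replicate 2).

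JAG1, a Notch ligand of the early nephron, had 148 to 223 counts in the SMARCB1 libraries and 0 to 4 in the GFP libraries. DKK1, a secreted WNT antagonist, had 6 to 17 counts in the SMARCB1 libraries and 5080 to 5516 in the GFP libraries, and was 406-fold lower in SMARCB1 DMSO (edgeR adjusted p = 3.32e-19). Of the 7 tested early nephron genes, 2 were higher and 3 lower in SMARCB1 DMSO, where 16.3% of all genes were higher and 15.7% lower. The 2 higher genes, JAG1 and BMP2, passed the filter through the SMARCB1 libraries alone, so hardly anything but a higher level there could be called. CCND1, the cyclin D1 gene, had the highest mean level of the list at 52.5 RPKM. IRX1, IRX2, IRX3 and POU3F3, markers of nephron segments, had 1 count each over all libraries.

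Of 13 ureteric bud genes, the other lineage that uses PAX2, 4 had at most 9 counts in every library and 8 could be tested. For Dox in the SMARCB1 line GATA2 (log2 fold change 0.39) and TFCP2L1 (2.55) rose and SPRY1 (-0.26) fell, with edgeR adjusted p of 0.0243, 0.0374 and 0.0275. That was 2 higher and 1 lower of 8, where 8.33% of all genes rose and 5.69% fell. Each of these 3 calls ended under 5 or more of the 18 alternatives, among them the fit without SMARCB1 Dox replicate 1 (edgeR adjusted p = 0.314, 0.221 and 0.224). TFCP2L1 had 1 to 16 counts a library, and GATA2 overlaps GATA2-AS1, which had 4767 counts against its 7456. The filter on low counts kept TFCP2L1 only through the SMARCB1 Dox libraries, so hardly anything but a rise could be called. Its place in the count of higher genes is thus no evidence against the share over all genes. RET, the receptor for GDNF, had 13 to 24 counts in the SMARCB1 libraries and 1 to 7 in the GFP libraries. WNT11, a signal made at the tips of the bud, had 27 to 46 counts in the SMARCB1 libraries and 611 to 953 in the GFP libraries, the same direction as PAX2 (log2 fold change -4.15, edgeR adjusted p = 2.84e-13). SPRY1, an inhibitor of RET signalling, had the highest mean level of the list (17.8 RPKM) and was higher in SMARCB1 DMSO than in GFP DMSO (1.18). Between the DMSO groups 2 of the 8 genes were higher and 3 lower, against 16.3% and 15.7% of all genes. RET was 1 of the 2 higher, and its call ended in 8 of the 18 alternatives, DESeq2 (Benjamini-Hochberg adjusted p = 0.0937) among them. RET also passed the filter through the SMARCB1 libraries alone, so hardly anything but a higher level there could be called.

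Podocyte genes did not come as a set. NPHS1, the nephrin gene and a defining marker, had 0 to 8 counts a library, and 6 of the 10 had at most 9 counts in every library. LMX1B, a LIM homeodomain factor of podocytes and limb, was the highest at a mean of 52.3 RPKM over the 8 libraries, and fell by 0.33 on the log2 scale with Dox in the SMARCB1 line (SE 0.0938, edgeR adjusted p = 0.0218). The call of LMX1B ended without SMARCB1 DMSO replicate 2 or SMARCB1 Dox replicate 1 (edgeR adjusted p = 0.205 and 0.219), and with scaling to library totals (0.121). PODXL, a surface sialomucin of podocytes and also of stem cells and endothelium, had 240 and 272 counts without and 832 and 660 counts with Dox in the SMARCB1 line and 67 to 97 in the GFP libraries.

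The PODXL values of SMARCB1 Dox lay above all other libraries. PODXL rose 2.56-fold (log2 fold change 1.36, SE 0.151, edgeR adjusted p = 2.12e-06), and FOXC2, a forkhead factor, rose by 0.59 (SE 0.132, adjusted p = 0.00351, and 0.0515 without SMARCB1 Dox replicate 1). These were 2 of the 4 podocyte genes tested, where 8.33% of all genes rose, and LMX1B was the 1 that fell, where 5.69% of all genes fell. Of 9 stromal genes 5 had at most 9 counts in every library, and TCF21 was at 0. PDGFRB had the highest mean level of this list, at 15.8 RPKM. FOXD1, the marker of stromal progenitors, had 364 to 592 counts in the SMARCB1 libraries and 62 to 66 in the GFP libraries (2.75, edgeR adjusted p = 1.01e-11). PDGFRA, a receptor of stromal cells, had 17 and 8 counts without and 47 and 51 counts with Dox in the SMARCB1 line and 2127 to 2666 in the GFP libraries.

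PDGFRA rose in the SMARCB1 line with Dox (log2 fold change 1.78, SE 0.295, edgeR adjusted p = 0.00023), but remained far below its level in the GFP line. It was the 1 gene called of 4 stromal genes tested, where 14% of all genes were called. Of 14 genes of mature tubule, 11 had at most 9 counts in every library, and UMOD, SLC12A1 and CDH16 were at 0. Of the 3 that could be tested, 0 were called for Dox, where 14% of all genes were called in the SMARCB1 line. The highest of this list, AQP1, had a mean of 0.0597 RPKM. Of 11 neural crest genes, 5 had at most 9 counts in every library and SOX10 had 1 count in all. MSX1 had the highest mean level of this list at 74 RPKM and rose by 0.31 with Dox in the SMARCB1 line (SE 0.0783, edgeR adjusted p = 0.0086, 0.0563 without SMARCB1 Dox replicate 1, and 0.0725 with GC correction). It was the 1 gene called for Dox of 6 tested, where 14% of all genes were called.

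The gap in PAX2 between the lines had neighbours of the same direction. In a window of 500 kb on either side of PAX2, chosen after its values were seen, 20 other genes were tested, of which 9 were lower and 0 higher in SMARCB1 DMSO than in GFP DMSO, against 15.7% lower and 16.3% higher among all genes. LBX1, a homeobox gene of migrating muscle precursors that lies 397 kb after PAX2, had a mean of 0.0303 CPM in SMARCB1 DMSO and 2.88 CPM in GFP DMSO (log2 fold change -6.33, SE 0.56, edgeR adjusted p = 7.19e-09). LBX1 and its neighbour LBX1-AS1, also among the 9, passed the filter on low counts only through the GFP libraries. For these genes hardly anything but a lower level in the SMARCB1 line could be called. SLF2, the nearest protein-coding gene after PAX2 at 83 kb, had 85.8 and 197 CPM (-1.20, adjusted p = 1.1e-10, edgeR). SCD, the stearoyl-CoA desaturase gene 371 kb before PAX2, had 636 and 1299 CPM (-1.03).

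**Figure D5:**
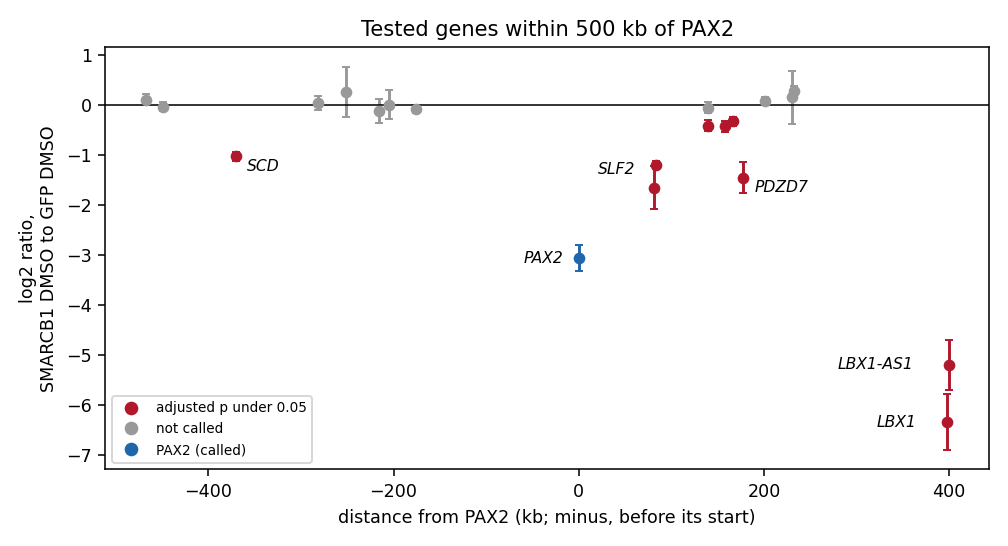
Log2 ratio of SMARCB1 DMSO to GFP DMSO (y axis, bars for the SE) against distance from PAX2 in kb (x axis) for PAX2 and the 20 other genes tested within 500 kb. Red points are the 9 called genes, all lower in the SMARCB1 line, and grey points are the 11 that were not called.

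The plot by distance shows that the lower genes were not contiguous. HIF1AN, the nearest expressed gene before PAX2 at 175 kb, had a log2 ratio of -0.09 and was not called, nor was MRPL43 at 139.5 kb after it (-0.06). SEMA4G (-0.42), TWNK (-0.43) and LZTS2 (-0.34) were lower by less than SLF2. PDZD7 (-1.46) overlaps LZTS2 and SFXN3 on the opposite strand, and SEMA4G and TWNK overlap MRPL43, so their counts are uncertain where strand was not used. Whether these differences share a cause with that of PAX2 was not tested.

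PAX2 differed mainly between the lines, so genes chosen for a pattern like that of PAX2 had to differ between them too. Among 9465 protein-coding genes at a mean of 5 CPM or more, the highest Pearson correlations with log2 CPM of PAX2 were those of PLCH1, a phospholipase C gene, FASTKD2, a mitochondrial RNA-binding protein gene, and SYF2, a splicing factor gene, each with r = 0.997 over 8 libraries that share line and treatment within a group. PLCH1 had means of 6.15 and 5.49 CPM in SMARCB1 cells without and with Dox, against 19.2 and 19.6 CPM in GFP cells. FASTKD2 differed by less, at 77, 72.9, 109 and 110.5 CPM in the same order. By Spearman correlation 34 genes tied at a rho of 1, and 0 of these 3 genes were among them.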

How the data were processed

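Per the labels and the study's methods, the authors aligned reads to hg38 with STAR and counted them per gene over exons with HTSeq in intersection-strict mode, using GENCODE v42. The versions and the strand option are not given in the sources used here, and the labels and the methods name different library kits. The deposited files hold raw read counts for 69215 genes and 5 entries that name no gene. Those entries, 27% to 29.3% of each file, were left out. Values of genes that overlap on opposite strands are therefore uncertain.

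Symbols, positions and exon lengths came from GENCODE v44 on GRCh38, which matched 62625 genes by Ensembl identifier. Counts were tested with edgeR 4.0.16 (R 4.3.3) by its quasi-likelihood test on all 8 libraries with 1 mean per group, default filterByExpr (15931 genes kept), TMM scaling and Benjamini-Hochberg adjustment over all genes tested, with calls at an adjusted p under 0.05. DESeq2 1.42.0, which the study used, was an alternative, as were other scalings and filters, a fit of the compared groups alone, exon GC correction, a replicate block and leaving out each library. The steps were tested on simulated data. A gene that the filter kept through the libraries of 1 group or line could hardly be called except as higher there. Intervals and limits (3 counts) cover counting error only, since PCR copies are not independent molecules.

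The text names the 8 genes, and of 9 further lists (122 genes with the 8) the gene of highest mean RPKM and called genes by size of change, up to 4 per list and comparison. Annotated genes that overlap the 8 or start within 5 kb of them and the 3 genes most correlated with PAX2 are named as well. Genes below the filter were named as examples after their values were seen. The members and lists were chosen with earlier results of these data known, and the related pairs, the flanking genes and the PAX2 window were chosen after their values were seen. Some list genes are counted but not reported here by name.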

Additional observations from a re-analysis of the deposited data

Results flagged for a closer look

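For 4 genes of the kidney lists the Dox effect differed between the SMARCB1 line and the GFP line in a test of the difference itself (edgeR quasi-likelihood test, Benjamini-Hochberg). They were 1 of 5 progenitor partners, 1 of 4 stromal genes, 1 of 4 podocyte genes and 1 of 13 relatives tested. In the other lists 0 were called, and among all genes tested 4.71% were. MEOX1 had a difference of -0.82 on the log2 scale (adjusted p = 0.00147), falling in the SMARCB1 line, from 50.1 ± 2.13 to 28.6 ± 5.44 CPM (SD, n = 2), while the GFP line stood at 72.5 ± 5.54 and 72.8 ± 1.39 CPM. PDGFRA had a difference of 1.75 (edgeR adjusted p = 0.00148), with 0.413 ± 0.241 and 1.39 ± 0.0981 CPM in the SMARCB1 line without and with Dox and 67.2 ± 3.18 and 68.3 ± 1.08 CPM in the GFP line. PODXL had a difference of 1.27 (edgeR adjusted p = 0.00476), with 8.24 ± 0.0115 and 21.1 ± 3.18 CPM against 2.26 ± 0.384 and 2.43 ± 0.507 CPM. The PODXL call ended without GFP DMSO replicate 2 (edgeR adjusted p = 0.0562). OSR2 had a difference of 0.86 (edgeR adjusted p = 0.0138), with 11.3 ± 0.153 and 19.7 ± 0.988 CPM against 5.57 ± 0.661 and 5.35 ± 0.841 CPM. The difference was not called for PAX2. The share of mitochondrial counts was 27.9% and 23.9% in SMARCB1 DMSO and 22.9% and 21.3% in SMARCB1 Dox, and its part in these results was not tested, beyond the fit without mitochondrial genes, in which all 4 were called.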

How the results depend on the processing

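The number of the 8 genes called, 0 for Dox in either line, 0 for the difference and 1 (PAX2) between the DMSO groups, was the same under every alternative run. PAX2 between the DMSO groups ranged from -3.57 to -2.72 on the log2 scale. Its Dox effect in the GFP line, 0.16, ranged from -0.067 to 0.43 when 1 library was left out and reversed without GFP DMSO replicate 1 (edgeR adjusted p = 1), for a cause that was not tested. Its Dox effect in the SMARCB1 line stayed below 0, from -1.19 to -0.24, with edgeR or DESeq2 adjusted p from 0.057 to 0.814. Over all genes, Dox in the SMARCB1 line called 2234 genes, and 1284 to 2088 when 1 library was left out, the lowest without SMARCB1 Dox replicate 1 and 1462 without SMARCB1 DMSO replicate 1. Dox in the GFP line called 0 genes, and 1 with no filter on low counts. The difference called 750 genes, and 390 to 805 when 1 library was left out (390 without GFP Dox replicate 1, 430 without its replicate 2, 414 without GFP DMSO replicate 2, 497 without its replicate 1 and 469 without SMARCB1 Dox replicate 1). The replicate numbers correlated between groups by 0.0309 to 0.148 and were not taken to pair the samples. With the replicate block the difference called 1282 genes, 1216 with GC correction and the block, and Dox in the SMARCB1 line 3149, while PAX2 there had an adjusted p of 0.0932. By Spearman correlation 0 of the 3 genes most like PAX2 remained. Over the alternatives for single genes, 989 values kept their direction and side of the threshold, 61 lost a call and 1 reversed. These single genes were PAX2 in every comparison and list genes already called, so apart from PAX2 no call could be gained. With 16 to 43 counts of PAX2 and 9 or fewer of the other 7 genes in the SMARCB1 libraries, depth limits any statement on their change, as does the spread between replicates.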
